A study of Rattus norvegicus with 8 samples.

Results

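The small heat shock proteins are chaperones built around an alpha-crystallin domain, and 7 of their genes (Hspb1, Hspb2, Hspb3, Hspb6, Hspb7, Hspb8 and Cryab) were followed by symbol in polyA RNA-seq profiles of rat abdominal aorta. All 7 were among the 18090 genes of the deposited table, and 6 of them, all but Hspb3, passed the filter on low values that left 11921 genes for testing. The 8 libraries came from wild-type rats. In 4 rats a filter paper soaked in 10% ferric chloride (FeCl3), which damages the endothelium by oxidation and so provokes a clot, was laid around the aorta for 5 min, and in the 4 controls the paper carried 0.9% saline. No other treatment or allele was labelled. The comparison asks which transcripts differ in the aorta after FeCl3 injury. The sources used here do not give strain, sex, age or the time from exposure to harvest. Levels are in FPKM, which divides the fragments of a gene by its length and by the size of the library, and the libraries held 24304434 to 30283292 fragments.

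Small heat shock proteins hold unfolding proteins in a soluble state without using ATP and pass them on to the ATP-driven Hsp70 machinery. In vascular smooth muscle they are abundant and bind the actin and desmin cytoskeleton, and Hspb6 (Hsp20) is known for taking part in relaxation once it is phosphorylated. Some members are induced by heat shock factor 1 (HSF1) under heat or oxidative stress, whereas others are set mainly by muscle cell type.

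Gene starts are shown for Hspb1 and Hspb7, which stood far above their usual level in 1 saline library, and for Hspb6 and Hspb8, which did not. Each line gives the 250 bases before the start of the gene, 5′ to 3′ on the gene's strand, from RefSeq on build GRCr8, and capitals mark the core of a heat shock element, the letters GAANNTTC or TTCNNGAA, where N is any base; both read the same on either strand.
Hspb1: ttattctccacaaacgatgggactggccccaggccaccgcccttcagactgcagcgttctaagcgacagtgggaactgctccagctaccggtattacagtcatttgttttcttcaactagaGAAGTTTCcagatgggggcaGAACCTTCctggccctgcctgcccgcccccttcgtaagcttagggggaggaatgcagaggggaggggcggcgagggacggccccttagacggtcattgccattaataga
Hspb7: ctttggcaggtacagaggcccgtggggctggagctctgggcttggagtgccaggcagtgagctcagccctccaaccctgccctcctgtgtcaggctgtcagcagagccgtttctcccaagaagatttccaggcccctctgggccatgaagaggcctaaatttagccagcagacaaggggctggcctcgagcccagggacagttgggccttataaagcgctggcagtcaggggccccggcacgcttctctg
Hspb6: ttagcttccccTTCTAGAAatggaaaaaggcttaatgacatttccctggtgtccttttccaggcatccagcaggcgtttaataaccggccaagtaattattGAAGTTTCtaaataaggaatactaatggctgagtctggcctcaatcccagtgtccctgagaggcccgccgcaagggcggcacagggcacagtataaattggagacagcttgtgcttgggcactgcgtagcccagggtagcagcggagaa
Hspb8: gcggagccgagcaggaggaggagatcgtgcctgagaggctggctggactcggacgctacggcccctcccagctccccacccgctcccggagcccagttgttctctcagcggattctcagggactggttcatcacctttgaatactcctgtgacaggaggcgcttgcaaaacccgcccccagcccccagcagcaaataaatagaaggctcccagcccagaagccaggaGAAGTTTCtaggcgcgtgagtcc
These windows lie at chr12:26432302-26432551 (minus strand) for Hspb1, chr5:159010509-159010758 (plus strand) for Hspb7, chr1:94934122-94934371 (plus strand) for Hspb6 and chr12:45837058-45837307 (plus strand) for Hspb8. The RefSeq table matched 5 of the 7 members, and Hspb2 and Cryab had no entry. Hspb1 held the core at 129 to 122 and at 109 to 102 bases before its start, Hspb6 at 239 to 232 and at 149 to 142, and Hspb8 at 23 to 16. Hspb7 and Hspb3 held none. Of all 33469 promoter windows of this length 13.5% held the core on either strand, and 9.99% of the 10331 windows of tested genes did. The longer element of 3 units, GAANNTTCNNGAA or TTCNNGAANNTTC, was in 0 of the 5 member windows and in 0.663% of all windows, and a CArG box, the element bound by serum response factor in muscle genes, in 0 of 5 and 1.5%. A match describes letters in the window, not a bound site.

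Some libraries stood apart before any comparison. Smooth muscle RNA was present in all 8, with all 10 listed markers above 0 in each. Acta2, smooth muscle actin, was at 1304 to 4260 FPKM in the FeCl3 libraries and 1790 to 10404 FPKM in the saline libraries. The blood content differed, since haemoglobin genes took 16.4% to 34.1% of fragments after FeCl3, against 1.30% to 1.63% in saline replicates 1 to 3 and 16.5% in saline replicate 4. Saline replicate 1 had the highest summed smooth muscle markers (26244 FPKM, the other 7 libraries 3832 to 15537), and very little of 6 endothelial markers (7.58 FPKM in all, the others 95 to 212) and of 6 white adipocyte markers (1.93 FPKM, the others 343 to 12105, with Lep and Cfd at 0). Saline replicate 2 held the most brown adipocyte RNA (4 markers, 7562 FPKM in all, the others 26.3 to 266). It also had the highest sum of mesothelial markers (5 markers, 211 FPKM, the others 0.0437 to 3.07), nearly all of it Krt19 (199 FPKM). Msln, Upk3b and Lrrn4 were highest there too, at 7.95, 3.68 and 0.191 FPKM, but Wt1 was not (0.00601 FPKM there, up to 0.189 FPKM elsewhere). In bulk tissue, fewer cells of a type and less RNA per cell cannot be told apart. The part of these differences in the results on the small heat shock genes was not tested, and the fold changes are given with and without saline replicate 1.

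Hspb1 (Hsp27 in human), the most abundant member, set the level of the family. It had 193, 168, 205 and 187 FPKM in FeCl3 replicates 1 to 4, against 10156, 172, 291 and 283 FPKM in saline replicates 1 to 4. The FeCl3 libraries lay close together, saline replicate 2 lay among them, saline replicates 3 and 4 lay above all FeCl3 libraries, and saline replicate 1 was 35.0-fold above the next highest library. In that library Hspb1 ranked 4th of all genes by FPKM, with 273734 fragments or 0.904% of the library (95% exact binomial interval 0.901% to 0.907%, which covers counting error only). Elsewhere it took 0.0150% to 0.0182% of fragments after FeCl3 and 0.0153% to 0.0259% in the other saline libraries. Within the FeCl3 group the SD of Hspb1 was 0.12 on the log2(FPKM + 1) scale, and 2.58% of tested genes had a smaller one. The same SD was 2.72 in saline, where 99.2% of genes had a smaller one.

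Cryab, alpha-B crystallin, a partner of Hspb1 in mixed oligomers and a desmin chaperone, was the second most abundant member. It had 37.4, 53.3, 71.9 and 59.6 FPKM in FeCl3 replicates 1 to 4, against 794, 32.1, 105 and 89.3 FPKM in saline replicates 1 to 4. The groups overlapped, because saline replicate 2 had the lowest value of all 8 libraries. Saline replicates 1, 3 and 4 were above every FeCl3 library.

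Hspb2, which is known to pair with Hspb3 in muscle, is a neighbour of Cryab on chromosome 8. Their gene models overlap in RefSeq. Whether the counting used strand is not given in the sources used here, so how fragments of the overlap were counted is not known. Hspb2 measured 14.1, 31.9, 39.0 and 38.5 FPKM in FeCl3 replicates 1 to 4, against 65.9, 23.2, 61.2 and 27.1 FPKM in saline replicates 1 to 4. The groups overlapped, with saline replicates 1 and 3 above and FeCl3 replicate 1 below all others. The Cryab level was 12.1 times that of Hspb2 in saline replicate 1, against 1.55 to 2.65 times in the FeCl3 libraries and 1.38 to 3.29 times in the other saline libraries.

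Hspb6, the relaxation-linked member of smooth muscle, had 14.4, 14.5, 20.8 and 23.0 FPKM in FeCl3 replicates 1 to 4, against 38.1, 41.3, 25.9 and 30.1 FPKM in saline replicates 1 to 4. It was the one member whose groups did not overlap, and here saline replicate 1 was an ordinary library. Of all tested genes 8.75% lay lower after FeCl3 without overlap, and 1.06% lay higher without overlap, against 1 and 0 of the 6 members. The separation depended on scaling: it held with FPKM rescaled to TPM, where Hspb1 also lay lower without overlap and 33.3% of all genes did the same, and not with median-of-ratios scaling, quantile normalization or haemoglobin left out of the library total.

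Hspb7, a muscle member that binds filamin C, had 4.37, 9.25, 2.83 and 3.92 FPKM in FeCl3 replicates 1 to 4, against 257, 18, 13 and 5.11 FPKM in saline replicates 1 to 4. Only FeCl3 replicate 2 reached into the saline range, above saline replicate 4. Saline replicate 1 was 14.3-fold above the next library.

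Hspb8 (Hsp22), which works with the co-chaperone Bag3 to send damaged filamin to autophagy, had 20.3, 3.80, 1.96 and 1.23 FPKM in FeCl3 replicates 1 to 4, against 13, 14.4, 36.1 and 12.6 FPKM in saline replicates 1 to 4. FeCl3 replicate 1 lay inside the saline range and the other 3 FeCl3 libraries below it. FeCl3 replicate 1 also had the highest summed white adipocyte markers (12105 FPKM) and the lowest summed smooth muscle markers (3832 FPKM) of the 8 libraries, and their part in its Hspb8 level was not tested. The Hspb8 level was 0.0588 times that of Bag3 in saline replicate 1, against 0.678 to 0.955 times in the other saline libraries and 0.0771 to 1.25 times after FeCl3.

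Hspb3, a member of skeletal and heart muscle, was listed at 0 in all 4 FeCl3 libraries and in saline replicates 1 and 2, and at 0.186 and 0.221 FPKM in saline replicates 3 and 4. These 2 values rest on at least 1 fragment each, too few to fix the number. A count of 0 allows up to 3 fragments per library, so in the 6 libraries listed at 0 Hspb3 was not detectable at this depth, which does not show that it was absent.

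**Figure D1:**
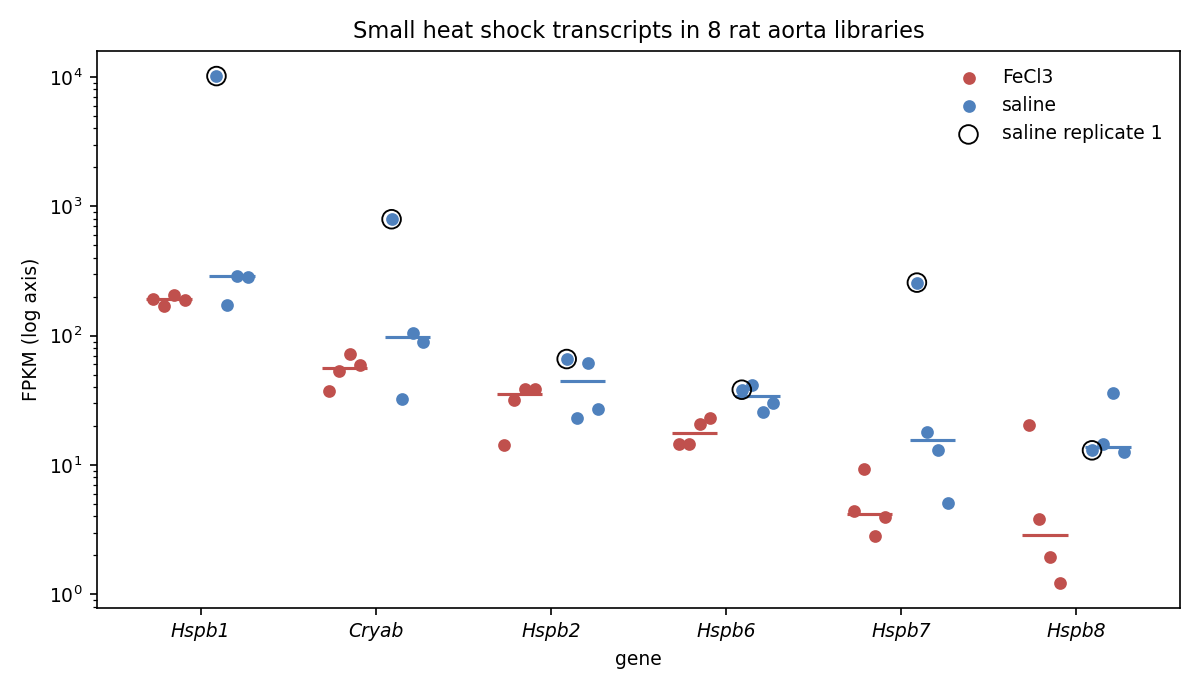
FPKM (log axis) of 6 small heat shock genes in each library, FeCl3 in red and saline in blue, with lines at the group medians and a ring around saline replicate 1. Hspb1 at 10156, Cryab at 794 and Hspb7 at 257 FPKM put that library far above the others, while its Hspb2, Hspb6 and Hspb8 values lie among or close to them.

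By median FPKM after FeCl3 the order was Hspb1 (190), Cryab (56.5), Hspb2 (35.2), Hspb6 (17.6), Hspb7 (4.15) and Hspb8 (2.88). The ranges of Hspb1 and Cryab did not overlap there, nor did those of Hspb6 and Hspb7, whereas Cryab and Hspb2, Hspb2 and Hspb6, and Hspb7 and Hspb8 did. In saline the medians were 287, 97.2, 44.2, 34.1, 15.5 and 13.7 FPKM in the same order, and the ranges of each pair of neighbours overlapped. Within each of the 8 libraries, however, Hspb1 was above Cryab (2.77 to 12.8 times) and Cryab above Hspb2 (1.38 to 12.1 times). The 7 genes together had 281 to 341 FPKM after FeCl3, against 11324 FPKM in saline replicate 1, with the remaining controls at 301 to 532 FPKM. Hspb1 made up 59.7% to 68.1% of that sum after FeCl3, against 89.7% in saline replicate 1, whereas the remaining controls had 54.6% to 63.2%. Hspb6 ranged from 5.08% to 7.34% after FeCl3, against 0.337% in saline replicate 1, whereas the remaining controls had 4.86% to 13.7%.

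**Figure D2:**
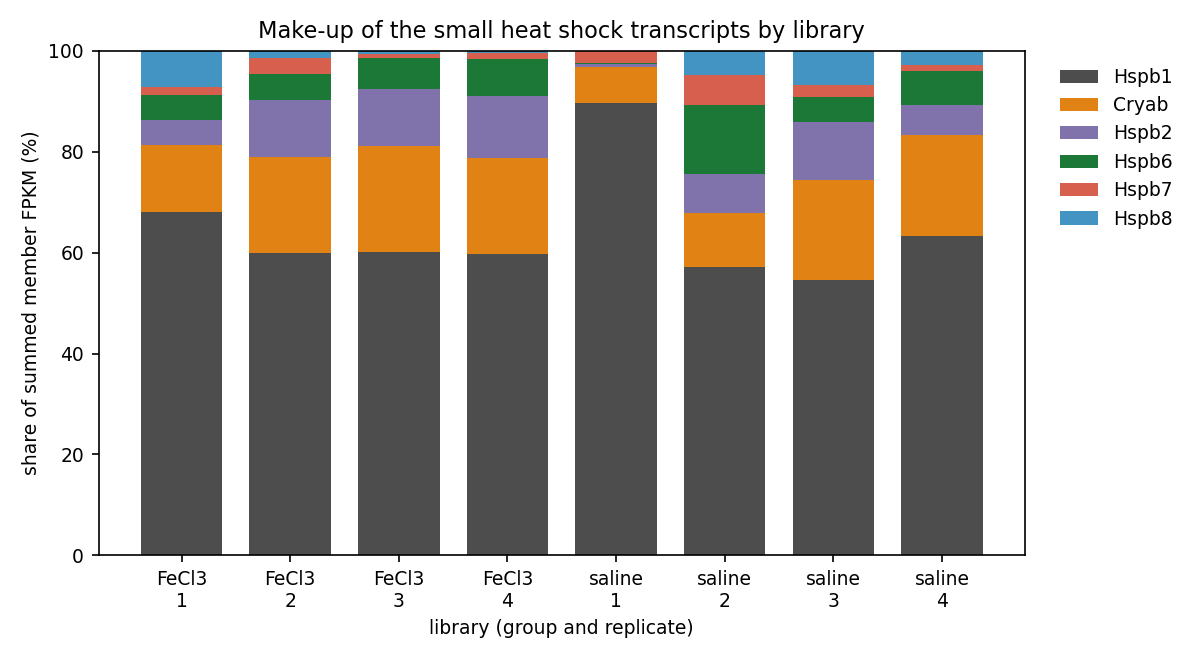
Share of the summed FPKM of the small heat shock genes taken by each gene in each library, stacked to 100%, with FeCl3 replicates at the left and saline replicates at the right (Hspb3, at or near 0, is not drawn). Hspb1 takes 54.6% to 68.1% in 7 libraries and 89.7% in saline replicate 1.

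FeCl3 was set against saline with limma on log2(FPKM + 1) over all 11921 genes, with Benjamini-Hochberg adjustment. At an adjusted p under 0.05, 0 of 6 members were called, and 0% of all genes. An unadjusted p under 0.05 was reached by 1981 genes, and limma's voom on the recovered fragments also called 0 genes. All 6 tested members were on the negative side, as were 70.2% of all genes, and the median was -1.45 for the 6 members and -0.25 for all genes. For Hspb6 the log2 fold change came to -0.87 ± 0.25 (SE; adjusted p = 0.245 with limma) and was lower in each FeCl3 library than in each saline library. Hspb8 had -1.83 ± 0.69 (SE; limma adjusted p = 0.264). These 2 members had an unadjusted p under 0.05 (0.00705 and 0.0264), a level at which 12.2% of all genes were lower and 4.42% higher. The values were -2.16 ± 1.01 for Hspb7, -1.71 ± 1.14 for Hspb1, -1.19 ± 0.83 for Cryab and -0.46 ± 0.45 for Hspb2 (SE; adjusted p with limma of 0.316, 0.456, 0.468 and 0.608). For these 4 genes the 95% interval included 0, and for Hspb1 it ran from -4.31 to 0.89.

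Without saline replicate 1, 0 of 6 members and 0% of all genes were called (2083 genes had an unadjusted p under 0.05 in limma). Hspb1, Cryab and Hspb7 had log2 fold changes of -0.36 (limma adjusted p = 0.463), -0.31 (0.685) and -1.05 (0.290), against -1.71, -1.19 and -2.16 with it. Hspb6 and Hspb8 had -0.80 (limma adjusted p = 0.270) and -1.96 (0.273), against -0.87 and -1.83 with it, and both again had an unadjusted p under 0.05 (0.0186 and 0.0337), as did 15% of all genes in that direction. Hspb2 had -0.23 (limma adjusted p = 0.776), against -0.46 with it. The member median was then -0.58, the median of all genes -0.33, and 78.2% of all genes had a negative fold change. Hspb2 and Cryab lay above the median of all genes in that fit, the other 4 members below it. Hspb8 moved furthest from 0 without FeCl3 replicate 1, the FeCl3 library inside its saline range. Its log2 fold change was then -2.52 ± 0.44 (SE), with a limma adjusted p of 0.333 and an unadjusted p of 0.000468. Its groups then no longer overlapped, which the choice of that library fixed in advance. Without FeCl3 replicate 2, 3 or 4, or without saline replicate 3, its unadjusted limma p was 0.0541, 0.0732, 0.0783 and 0.0735.

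**Figure D3:**
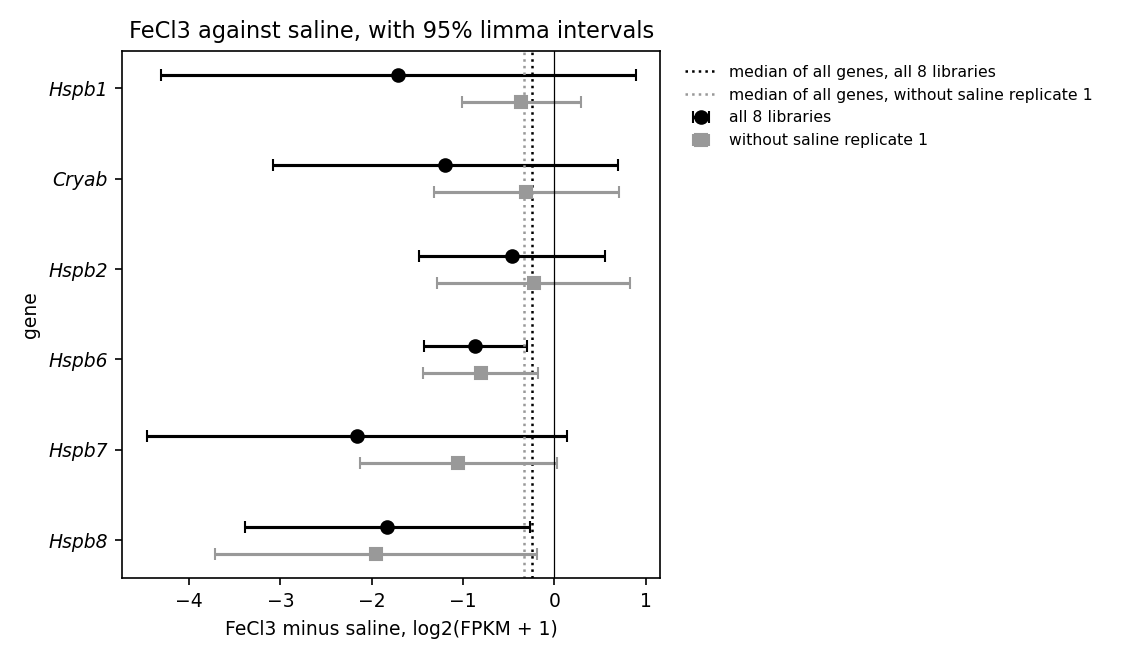
FeCl3 minus saline on the log2(FPKM + 1) scale for 6 small heat shock genes with 95% limma intervals, from all 8 libraries (black circles) and without saline replicate 1 (grey squares), with dotted lines at the medians of all tested genes (-0.25 and -0.33). Hspb6 is at -0.87 and -0.80, Hspb8 at -1.83 and -1.96, and Hspb1 at -1.71 and -0.36.

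With all 8 libraries, scaling moved the values of all genes and not the sign of any member. The median of all genes was -0.25 with FPKM, -0.90 with FPKM rescaled to TPM, -0.05 with median-of-ratios scaling, -0.08 with quantile normalization and 0.01 with haemoglobin left out of the total. The median of the 6 members was -1.45, -2.19, -1.22, -1.36 and -1.14 in the same order, and all 6 members had a value below the median of all genes in each of these 5 fits, which all include saline replicate 1. TPM divides each value by the summed FPKM of its library, so a larger sum lowers every gene of that library. To that sum red cell markers gave 259422 to 589320 FPKM after FeCl3 and 21025 to 258408 FPKM in saline. Their part in the calls under TPM was not tested. Rescaling to TPM called 27.6% of all genes (65 higher and 3223 lower), and with it Hspb6 and Hspb8 (limma adjusted p of 0.0408 for both). Under median-of-ratios scaling, quantile normalization and haemoglobin left out, neither was called. The unadjusted limma p of Hspb6 was then above 0.05 each time, at 0.0771, 0.0590 and 0.0546. That of Hspb8 was 0.0344, 0.0390 and 0.0523 in the same order.

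Saline replicate 1 split the family. On the FPKM + 1 scale Hspb1 was 34.8-fold, Hspb7 13.6-fold and Cryab 7.49-fold above the highest of the other 7 libraries, ranks 3, 5 and 13 of the 11921 tested genes. Hspb2 was 1.07-fold above it, Hspb6 stood at 0.926 of it and Hspb8 at 0.376. At least 4-fold above the other 7 libraries were 3 of 6 members, against 0.394% of all genes (47 genes), and in 4 of 6 members it was the highest library, as it was for 14.1% of all genes. This is a description of 1 library, with no replicate and no test.

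Other chaperones of the heat shock response also stood high in that library. The gene lists were chosen with earlier results of these data known, so the counts below are descriptions and not tests. Of 14 HSF1-driven chaperones tested, 6 were at least 4-fold above every other library there and 12 were highest there. Hspa1b, an inducible Hsp70 whose near-identical copy can share its reads, had 890 FPKM there against 2.59 to 6.21 FPKM elsewhere. Hspa8, the cognate Hsp70, had 2937 FPKM there against 213 to 748 FPKM elsewhere, and Hsp90aa1, the inducible Hsp90, 2114 against 152 to 358 FPKM. Hspe1, the mitochondrial Hsp10, and Hspa4l were the exceptions. Hspe1 had 445 FPKM there and 124 to 529 FPKM elsewhere, and Hspa4l 6.06 FPKM there and 0.334 to 10.4 FPKM elsewhere. Of 8 partners of the Hspb8 and Bag3 pathway 2 were at least 4-fold above, Bag3 itself (221 FPKM, 9.77 to 37.8 elsewhere) and filamin C, Flnc (29.6 FPKM, 0.872 to 5.63 elsewhere); both were named after their values were seen. None of 10 constitutive chaperones and none of 8 heat shock regulators reached 4-fold, although 7 of the 10 and 3 of the 8 were highest in that library. Hsf1 itself had 14.1 FPKM there and 5.97 to 11.5 FPKM in the other libraries. Of 10 smooth muscle markers, 9 were highest in saline replicate 1 and 1 was at least 4-fold above, Myocd, a coactivator of smooth muscle genes (73.6 FPKM, 1.69 to 8.77 elsewhere). Immediate early genes, which respond to handling within minutes, summed to 1075 FPKM there, inside the 614 to 1443 FPKM of the other libraries. The sum covers members that differed: of the 10 listed, 1 was highest there, Dusp1 (455 FPKM, 204 to 352 elsewhere), and 0 reached 4-fold. Fos had 63.5 FPKM there and 30.6 to 304 FPKM elsewhere. Nr4a3, which was not on the list, had 27.5 FPKM there and 0.140 to 6.75 FPKM elsewhere. Whether handling had a part in the levels of that library was not tested.

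**Figure D4:**
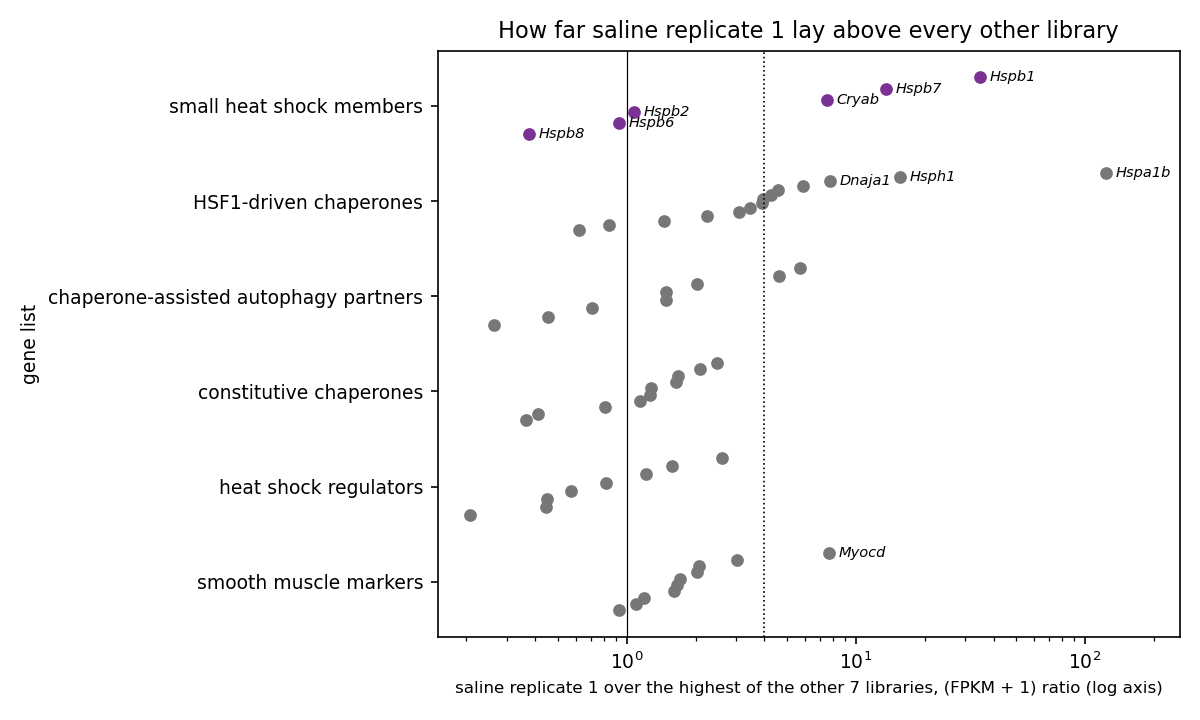
Ratio of FPKM + 1 in saline replicate 1 to the highest of the other 7 libraries (log axis), 1 point per tested gene, by gene list, with lines at 1 and at 4. Hspb1, Hspb7 and Cryab lie at 34.8, 13.6 and 7.49 beside the inducible chaperones Hspa1b, Hsph1 and Dnaja1, and Hspb2, Hspb6 and Hspb8 at 1.07 or less.

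Set against smooth muscle actin, Hspb2 had the narrowest spread of the 6 members. The Hspb2 level was 0.00915 to 0.0127 times that of Acta2 after FeCl3, against 0.00633 to 0.0130 times in saline, a 2.05-fold spread over 8 libraries in which Acta2 itself spread 7.98-fold. Against Myh11, smooth muscle myosin, Hspb2 was at 0.0684 to 0.114 times after FeCl3 and 0.0483 to 0.0653 times in saline, without overlap and with saline replicate 1 inside the saline range, as 4.08% of all genes were higher without overlap on that measure, a denominator taken up after its values were seen. Both genes of that ratio had a negative log2 fold change, -0.996 for Myh11 and -0.463 for Hspb2 (limma adjusted p of 0.300 and 0.608). Without saline replicate 1 these were -0.814 and -0.228. Cryab spread 5.09-fold over Acta2 in all libraries, and 1.91-fold without saline replicate 1. Hspb6 was 0.00487 to 0.0111 times Acta2 after FeCl3, against 0.00367 to 0.0231 times in saline, so its groups overlapped on this measure. The spread was 21.7-fold for Hspb1, 37.2-fold for Hspb7 and 50.3-fold for Hspb8. Without saline replicate 1 they were 3.29-fold, 15.1-fold and 50.3-fold.

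The other genes of the pathway also had no call in the comparison of FeCl3 with saline. Of the HSF1-driven chaperones 0 of 14 passed and all 14 were on the negative side (median -1.28 in all libraries and -0.60 without saline replicate 1). Their most abundant members were Hspa8 (log2 fold change -1.43 ± 0.60 SE, limma adjusted p = 0.291), Hsp90aa1 (-1.25 ± 0.69, 0.374) and Hspe1 (-0.40 ± 0.60, 0.746). Without saline replicate 1 these 3 genes were at -0.81, -0.49 and -0.12. Of 8 regulators, among them Mapkapk2, a kinase that phosphorylates Hspb1, 0 passed and 8 were negative (median -0.47, and -0.53 without saline replicate 1), with Ptges3, Fkbp4 and Mapkapk2 as the most abundant (-0.43, -1.38 and -0.78; limma adjusted p of 0.467, 0.248 and 0.344). Ptges3, Fkbp4 and Mapkapk2 were at -0.21, -0.95 and -0.77 without that library. Of 8 partners in chaperone-assisted autophagy 0 passed and 7 were negative (median -0.86, and -0.65), with the most abundant being Tpm1, Flna and Map1lc3b (-0.67, -1.06 and 0.69; limma adjusted p of 0.458, 0.372 and 0.352). Without it Tpm1, Flna and Map1lc3b were at -0.39, -0.70 and 0.45. Of 10 constitutive chaperones 0 passed and 9 were negative (median -0.41, and -0.20), with Hsp90ab1, Cct5 and Hspa9 as the most abundant (-1.24, -0.09 and -0.92; limma adjusted p of 0.26, 0.888 and 0.454). Without saline replicate 1, 8 of the 10 were negative, Cct5 turned to 0.05, and Hsp90ab1 and Hspa9 were at -0.86 and -0.87. Of 7 intermediate filament genes, whose products include client filaments, 0 passed and 7 were negative (median -1.14, and -1.02), with Vim, Des and Lmna at -0.23, -1.14 and -0.68 (limma adjusted p of 0.799, 0.369 and 0.348). Without saline replicate 1, 6 of the 7 were negative, Vim turned to 0.12, and Des and Lmna were at -0.60 and -0.39. Smooth muscle markers had 0 of 10 calls and a median of -0.98, and -0.50 without saline replicate 1. Each of these medians is to be read beside -0.25 and -0.33 for all genes. Of skeletal muscle markers 6 of 12 could be tested, and their sum was 23.9 to 74.7 FPKM after FeCl3 against 33.6 to 83.4 FPKM in saline. Cardiac markers summed to 0.658 to 1.08 FPKM after FeCl3 against 0.121 to 1.52 FPKM in saline replicates 1, 3 and 4 and 115 FPKM in saline replicate 2, nearly all of it Tnnt2.

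The genes most like each member were taken as the 3 with the smallest root mean square difference from it, in log2(FPKM + 1) centred on each gene's mean over the 8 libraries, saline replicate 1 included. For Hspb1 they were Hsph1 (0.56), a large Hsp70 relative, Hspa1b (0.65) and Synpo2l (0.69), and for Hspb7 Hsph1 (0.41), Dnaja1 (0.66) and Nr4a3 (0.75). The profile of Cryab was nearest to Rcan1 (0.25), Itga5 (0.26) and Sh3d19 (0.27), and that of Hspb2 to Rhoq (0.13), Golim4 (0.15) and Twsg1 (0.15). Hspb6 was nearest to Hivep2 (0.17), Luzp1 (0.18) and Wwc3 (0.19), and Hspb8 to Vwa1 (0.49), S1pr3 (0.51) and Cbarp (0.53). Between members the smallest difference was that of Hspb2 and Hspb6 (0.66), followed by Hspb1 and Cryab (0.71), and the largest that of Hspb1 and Hspb8 (2.04). This measure is also small for 2 genes that each vary little, so a small value does not show that they rise and fall together. In saline replicate 2, Hspb2 was at its lowest of the saline group (23.2 FPKM) and Hspb6 at its highest (41.3 FPKM). Hspb1 and Cryab were both lowest of that group in saline replicate 2 and highest in saline replicate 1.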

How the data were processed

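The authors deposited 1 table of FPKM values (polyA RNA-seq, rat abdominal aorta). Per the submitters' processing notes, fastp, HISAT2 and HTSeq were run on build mRatBN7.2; versions, annotation and strand setting are not given in the sources used here. Column names were tied to sample titles and groups to the treatment label, with 0 value columns unused. The 4 samples of a group were described as biologically independent. Library totals and gene lengths were recovered from the steps of the FPKM values, which gave whole fragments for 100% of 18090 genes within a tolerance of 0.02; the recovered length of 5 genes, including Hbb, had to be doubled. No 2 libraries were duplicates (at most 1.31% of genes with equal fragments in 28 pairs). FPKM are not counts, so limma 3.58.1 (R 4.3.3; trend, two-sided) was run on log2(FPKM + 1) of every gene that reached FPKM 1 in 4 or more libraries, with Benjamini-Hochberg adjustment over these genes and a threshold of 0.05. A fold change on this scale understates the change of low genes. The steps were tested on simulated data.

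The members and gene lists were chosen with earlier results of these data known. All members are named, then the 3 nearest genes of each, then of each list up to 3 passing genes or, where none passes, the 3 most abundant (cell type markers are given by counts and sums). Alternatives were other pseudocounts (0.1 and 0.01), filters and scalings, limma without trend and robust, voom on recovered fragments, and libraries left out. RefSeq promoters (GRCr8) were searched for motifs in Python 3.11.15.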

Additional observations from a re-analysis of the deposited data

Results flagged for a closer look

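In 2 of the 13 groups of 4 libraries in which a small heat shock gene was above 0 at least once, 1 library stood apart by Dixon's test on log2(FPKM + 1), where the gap to the nearest library has to exceed 0.829 of the range; chance gives about 5% of groups, and of all 11921 genes tested 6.27% passed in the FeCl3 group and 5.63% in the saline group. Hspb1 in saline replicate 1, at 10156 FPKM, had a gap of 0.872 of the range. Hspb8 in saline replicate 3, at 36.1 FPKM, had a gap of 0.871, because the other 3 saline libraries lay between 12.6 and 14.4 FPKM. Hspb7 and Cryab in saline replicate 1 were also the highest of their group, with gaps of 0.697 and 0.634 that stay under the critical value.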

How the results depend on the processing

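All 6 members kept a negative fold change under each of the 21 alternatives, and 124 of 126 member values stayed on the same side of the threshold. The exceptions came with FPKM rescaled to TPM, where 3288 genes and 2 members were called, Hspb6 at -1.60 and Hspb8 at -2.60 (limma adjusted p = 0.0408 for both; over all alternatives 0.0408 to 0.534 for Hspb6 and 0.0408 to 0.547 for Hspb8). With a library left out, 0 to 160 genes changed, 160 without saline replicate 4, and 51 changed without saline replicates 1 and 4 together; 0 members were among them. With 1 library left out at a time the log2 fold change ran from -2.32 to -0.36 for Hspb1, -1.84 to -0.31 for Cryab, -0.72 to -0.14 for Hspb2 (without FeCl3 replicate 1), -0.99 to -0.77 for Hspb6, -2.85 to -1.05 for Hspb7 and -2.52 to -1.43 for Hspb8. Without saline replicates 1 and 4 together it was -0.25 for Hspb1 and -0.11 for Cryab, nearer to 0 than in any single leave-out. The other tested members were at -1.52 (Hspb7), -2.23 (Hspb8), -0.84 (Hspb6) and -0.38 (Hspb2) in that fit. Each of these was further from 0 than without saline replicate 1 alone (-1.05, -1.96, -0.80 and -0.23). Without saline replicates 1 and 2 together, a choice made after seeing the data, Hspb7 was at -0.70, Cryab at -0.83 and Hspb6 at -0.62. The cause of these shifts was not tested. Each tested member had at least 70 fragments in each library, and 4 libraries a group limit the precision. No paired analysis was possible because the sample titles of the 2 groups share fewer than 2 numbers and no label pairs animals.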

Other observations

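Among the 15 tested genes in which saline replicate 1 lay furthest above the other 7 libraries, most were named in the results, and 1 of the 15 is not reported here. LOC108348108, annotated as heat shock 70 kDa protein 1A, had 910 FPKM there and at most 6.68 FPKM elsewhere. It is a near-identical copy of Hspa1b, and how reads that match both were counted is not known. Ahsa2, an activator of the Hsp90 ATPase, had 46.7 FPKM and at most 4.49 FPKM elsewhere. Synpo2l, a synaptopodin relative of striated muscle and 1 of the genes nearest to Hspb1, had 67.6 FPKM and at most 4.42 FPKM elsewhere. Cnnm2, annotated as a divalent metal cation transport mediator, had 84.4 FPKM and at most 8.67 FPKM elsewhere, and Fam189a2 had 41.9 FPKM and at most 4.14 FPKM elsewhere. Rcan1, an inhibitor of calcineurin and nearest to Cryab, had 507 FPKM and at most 71.6 FPKM elsewhere, and Tnfrsf12a, the receptor of the cytokine TWEAK, had 515 FPKM and at most 74.2 FPKM elsewhere. These genes were chosen by their values in 1 library, which has no replicate, and no test was made.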
